A study of Mus musculus with 6 samples.

Results

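Cells recognise viral or misplaced nucleic acids through a small set of sensors, and 10 genes of this system are described here in mDE6, a mouse cell line, with and without a short hairpin RNA against Arl4c. The genes were taken by name from a table of 22032 genes. They are Ddx58, Ifih1 and Dhx58 (the RIG-I-like receptors), Mavs (their adaptor), Tlr3 and its adaptor Ticam1, Cgas and its partner Sting1, and the kinases Tbk1 and Ikbke. All 10 were in the table and all 10 had a mean of at least 1 CPM, the level from which genes were tested. CPM is the read count of a gene relative to the size of its library, after the authors' scaling between libraries.

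As background, RIG-I (Ddx58) and MDA5 (Ifih1) bind double-stranded RNA in the cytosol and pass the signal to MAVS on the outer mitochondrial membrane, and LGP2 (Dhx58) binds RNA but lacks the domains that signal to MAVS. TLR3 senses double-stranded RNA in endosomes and signals through TRIF (Ticam1), while cGAS binds cytosolic DNA and makes the messenger cGAMP, which activates STING at the endoplasmic reticulum. All these routes meet at the kinases TBK1 and IKK epsilon (Ikbke), which phosphorylate the transcription factor IRF3 so that it can induce interferon genes. Ddx58, Ifih1 and Dhx58 are themselves known interferon-induced genes, so that sensor levels can be part of the output of the system as well as its input. Genes are called interferon-induced here as background and not from a fixed list. The term therefore does not separate genes that rose from genes that did not. Whether interferon had a part in the changes was not tested.

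RNA was sequenced from 6 libraries in 2 groups: mDE6 cells expressing shControl (3 libraries, columns numbered 1, 2 and 3) and mDE6 cells expressing shArl4c (3 libraries, columns numbered 2, 3 and 4). The labels name no further treatment or time. They give neither the tissue of origin of the line nor the hairpin sequences and tell apart only 1 hairpin group against Arl4c, so effects of less Arl4c cannot be told apart from other effects of that hairpin. Nothing says that the 3 libraries of a group came from separate cultures, so p-values measure the spread between these libraries, which may be technical, and any difference in culture between shControl and shArl4c cannot be told apart from the effect of the hairpin.

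The libraries held 12316770 to 14976113 reads, and 3051 to 4641 of these came from the 10 genes. The hairpin's target, Arl4c, a small GTP-binding protein gene of the ARF family, measured 20.7, 21.0 and 20.1 CPM in the shControl libraries against 6.75, 7.42 and 6.89 CPM in the shArl4c libraries, a 2.94-fold lower level (limma log2 fold change -1.43, SE 0.09, adjusted p = 2.08e-10). One library, shArl4c 3, was unlike the rest of its group, with a chi-square over genes, per degree of freedom, of 5.74 and 4.87 against shArl4c 2 and 4, which differed from each other by 1.54. By limma, 5445 of 14740 tested genes changed (36.9%), 2790 higher (18.9%) and 2655 lower (18%), so a changed gene was common. Mesenchymal markers such as Col1a1 (17787 CPM in shControl, 10139 CPM in shArl4c) were abundant, and 7 of 7 mesenchymal markers were tested, of which 2 rose and 3 fell. Of 10 epithelial markers, 7 were in the table and summed to 4.28 to 7.20 CPM in shControl and 1.42 to 2.83 CPM in shArl4c, and 3 of 4 endothelial ones to 1.48 to 2.07 and 1.07 to 1.74 CPM.

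The starts of 4 of the genes are shown first, since genes induced through interferon often hold an interferon-stimulated response element there, whose core is a pair of GAAA copies with 2 bases of any kind between them. RefSeq sequences on build GRCm38.p6 (not the build of the deposited table, GRCm39) were at hand for 8 of the 10 genes, as windows of 300 bases that run from 250 before the start of the gene to 50 after it. Dhx58 and Sting1 had no window. The stretches below reach at most 30 bases past the start, other than that of Ifih1, which is limited to the 30 bases around its match, and capitals mark such a pair, with 2 bases or (GAAANGAAA) 1 base between the copies, on either strand. Ddx58, Ifih1 and Cgas rose in shArl4c, and Mavs is shown as a gene that did not pass the test.
Ddx58, chr4:40239796-40240075, minus strand, -250 to 30 from the start: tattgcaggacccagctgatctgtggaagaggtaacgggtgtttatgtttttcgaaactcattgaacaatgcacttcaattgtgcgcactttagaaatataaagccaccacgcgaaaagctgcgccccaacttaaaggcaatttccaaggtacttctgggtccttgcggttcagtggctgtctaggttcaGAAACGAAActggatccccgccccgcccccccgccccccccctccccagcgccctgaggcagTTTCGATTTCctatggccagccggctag
Ifih1, chr2:62646206-62646235, minus strand, 21 to 50 from the start: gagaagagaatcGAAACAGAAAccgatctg
Cgas, chr9:78443208-78443487, minus strand, -250 to 30 from the start: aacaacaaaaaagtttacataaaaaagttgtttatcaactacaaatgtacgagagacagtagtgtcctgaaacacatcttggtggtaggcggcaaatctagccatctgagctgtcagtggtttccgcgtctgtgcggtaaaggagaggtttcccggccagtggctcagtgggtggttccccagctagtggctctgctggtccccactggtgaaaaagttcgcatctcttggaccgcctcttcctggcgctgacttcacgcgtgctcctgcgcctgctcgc
Mavs, chr2:131233813-131234092, plus strand, -250 to 30 from the start: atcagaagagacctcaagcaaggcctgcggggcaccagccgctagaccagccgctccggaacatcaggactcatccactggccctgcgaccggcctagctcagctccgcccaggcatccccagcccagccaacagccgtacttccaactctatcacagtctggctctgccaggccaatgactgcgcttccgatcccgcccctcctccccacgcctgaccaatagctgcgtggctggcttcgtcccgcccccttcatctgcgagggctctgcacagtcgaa

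The pair with 2 bases between was found in 2 of the 8 windows, those of Ddx58 and Ifih1, and in 3.44% of all 32851 promoter windows of the same length. In Ifih1 it read GAAACAGAAA and lay 33 to 42 bases past the start. In Ddx58 it lay 3 to 12 bases past the start on the reverse strand. Ddx58 also held GAAACGAAA, at -60 to -52, a match to GAAANGAAA, which was searched after the sequence had been read and is in 3.17% of windows. The looser AANNGAAA, a part of the response element that overlaps the other motifs, was in 4 of the 8 windows (Ddx58, Ifih1, Tlr3 and Ikbke) and in 23.9% of all windows. TTCNNNGAA, the STAT dimer motif, was in none of the 8 and in 8.3% of all windows. These matches describe letters in short windows and not binding.

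Of the 10 genes, 6 rose in shArl4c, where 18.9% of all tested genes rose. None fell, where 18% of all tested genes fell, and 4 did not pass limma's test. The 6 were the 3 RIG-I-like receptors, Cgas, Sting1 and Tbk1. Their rises ran from 1.15-fold for Tbk1 to 2.73-fold for Ifih1. Mavs, Tlr3, Ticam1 and Ikbke did not pass. The median log2 fold change of CPM + 1 was 0.36 over the 10 genes and 0.01 over all tested genes. At least 1.5-fold higher levels with an adjusted p under 0.05 were found in 4 of the 10, Ifih1, Dhx58, Cgas and Sting1, and in 4.59% of all tested genes. The count of 0 lower genes was also given by edgeR and DESeq2, and 1 of the 10, Ticam1, was lower at an unadjusted p under 0.05. The libraries of the 2 groups did not overlap in 8 genes that were higher in shArl4c and in 1 that was lower, against 46.8% of all tested genes in either direction and 24.3% in the higher one.

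**Figure D1:**
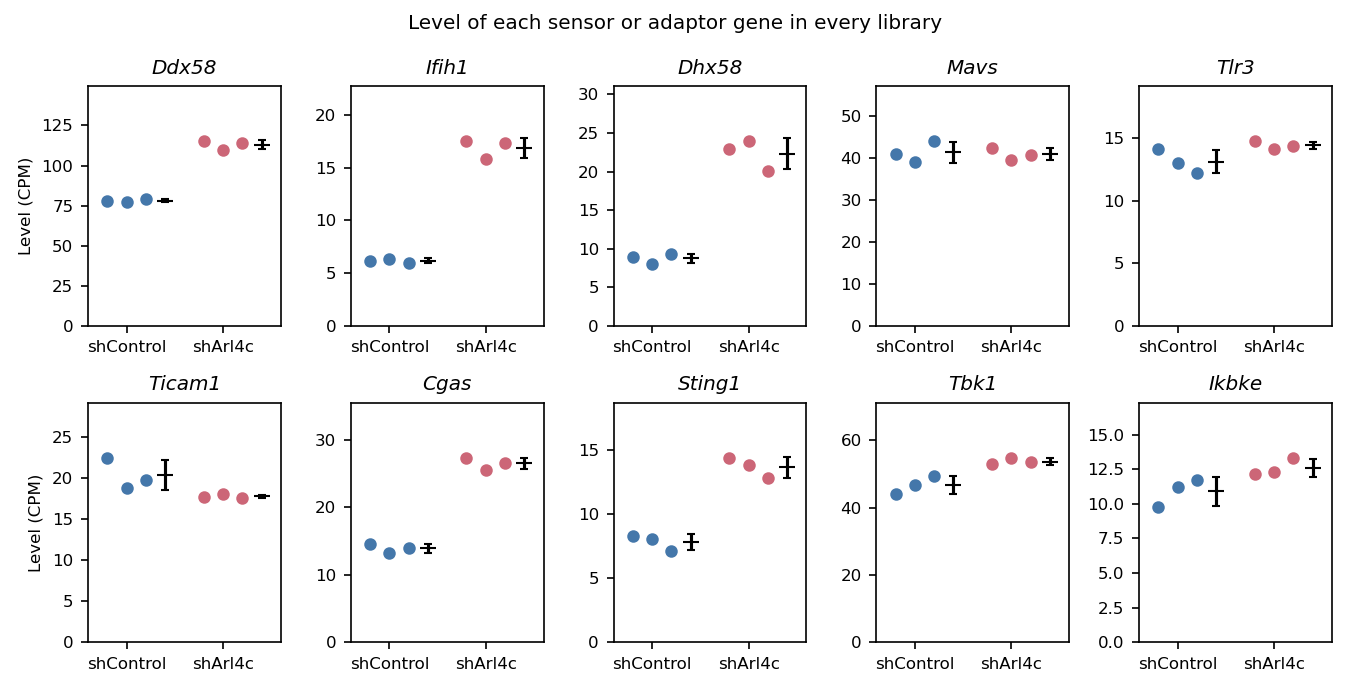
Level in CPM of each of the 10 genes (1 panel each, vertical axis from 0) in the 3 shControl (blue) and 3 shArl4c (red) libraries, with the mean and SD in black. Ddx58, Ifih1, Dhx58, Cgas and Sting1 show a wide gap between the groups, whereas the points of Mavs overlap and those of Tlr3, Ticam1, Tbk1 and Ikbke lie close together.

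Ddx58 encodes RIG-I, the receptor for short double-stranded RNA with a 5′-triphosphate end. Its level was 78.2, 77.0 and 79.0 CPM in shControl 1, 2 and 3, and it was 115, 109.8 and 114 CPM in shArl4c 2, 3 and 4. Every shArl4c library lay above every shControl library. The means were 78.1 ± 1.02 and 113 ± 2.77 CPM (SD, n = 3), 1.45-fold higher in shArl4c (limma log2 fold change 0.53, SE 0.04, adjusted p = 1.33e-08).

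Ifih1, which encodes MDA5, the receptor for long double-stranded RNA, had the largest rise of the 10 genes and ranked 321 of 14740 by the size of its change. Its levels were 6.20, 6.39 and 5.96 CPM in shControl and 17.5, 15.8 and 17.3 CPM in shArl4c. The groups were well separated, with the shArl4c 3 library the lowest of its group. The means of 6.18 ± 0.216 and 16.9 ± 0.918 CPM (SD, n = 3) differed 2.73-fold (limma log2 fold change 1.31, SE 0.10, adjusted p = 2.29e-09). Its level rested on 72 reads in its lowest library and 241 in its highest.

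Dhx58 encodes LGP2, the receptor without signalling domains that modulates the other two. In shControl it was at 8.93, 8.07 and 9.27 CPM, and in shArl4c at 22.9, 23.9 and 20.05 CPM. Here shArl4c 3 was the highest library and shArl4c 4 the lowest of its group, and the groups did not overlap. From 8.76 ± 0.618 to 22.3 ± 2.01 CPM (SD, n = 3), its mean rose 2.55-fold (limma log2 fold change 1.254, SE 0.09, adjusted p = 2.29e-09).

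Mavs, which encodes the adaptor of RIG-I and MDA5, did not pass the test. Its levels were 40.9, 39.1 and 43.9 CPM in shControl and 42.4, 39.6 and 40.8 CPM in shArl4c. The range of the shArl4c libraries lay inside that of the shControl libraries. The limma log2 fold change was -0.01 (SE 0.06, adjusted p = 0.907), with a 95% interval of -0.14 to 0.12. Its sign turned positive on plain CPM and without shControl 3 or shArl4c 3, to at most 0.03.

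Tlr3, the endosomal receptor for double-stranded RNA, had 14.1, 13.0 and 12.2 CPM in the shControl libraries, against 14.7, 14.2 and 14.4 CPM in the shArl4c ones. All shArl4c libraries were above all shControl libraries, with little space between the lowest of the former, 14.2 CPM, and the highest of the latter, 14.1 CPM. The limma log2 fold change of 0.13 (SE 0.09, 95% interval -0.05 to 0.31, adjusted p = 0.270) did not pass. Ticam1, which encodes TRIF, the adaptor of TLR3, was the one gene with every shArl4c library below every shControl library. It measured 22.4, 18.8 and 19.8 CPM in shControl and 17.6, 18.0 and 17.6 CPM in shArl4c. Its log2 fold change was -0.18 (SE 0.08, 95% interval -0.35 to -0.02), and it did not pass after adjustment (limma adjusted p = 0.0822).

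Cgas and Sting1, the DNA sensor and the receptor for its messenger, both rose. Cgas went from 14.6, 13.2 and 13.9 CPM in shControl to 27.3, 25.6 and 26.6 CPM in shArl4c. Its means of 13.9 ± 0.718 and 26.5 ± 0.872 CPM (SD, n = 3) differed 1.90-fold (limma log2 fold change 0.88, SE 0.08, adjusted p = 1.85e-08), with no overlap of the groups. Sting1 measured 8.27, 8.07 and 7.12 CPM in the shControl libraries, and in the shArl4c libraries 14.4, 13.8 and 12.8 CPM. The groups again did not overlap, and the means of 7.82 ± 0.616 and 13.6 ± 0.807 CPM (SD, n = 3) differed 1.75-fold (limma log2 fold change 0.73, SE 0.10, adjusted p = 9.21e-06).

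Of the kinases on which the routes converge, Tbk1, expressed in most cell types, rose by a small amount. Values of 44.1, 46.8 and 49.5 CPM in shControl faced 52.9, 54.8 and 53.5 CPM in shArl4c, groups that lay close to each other without overlapping. The 1.15-fold difference of the means, 46.8 ± 2.67 and 53.7 ± 0.988 CPM (SD, n = 3), passed limma's test (log2 fold change 0.20, SE 0.06, adjusted p = 0.00964). It no longer passed without shControl 1, the lowest library (limma adjusted p = 0.0715), or with DESeq2 (adjusted p = 0.0616). Ikbke, which encodes the related inducible kinase IKK epsilon, had 9.74, 11.2 and 11.7 CPM in shControl and 12.1, 12.3 and 13.3 CPM in shArl4c. Its groups did not overlap either, but its log2 fold change of 0.19 (SE 0.10, 95% interval -0.01 to 0.40, limma adjusted p = 0.139) did not pass.

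**Figure D2:**
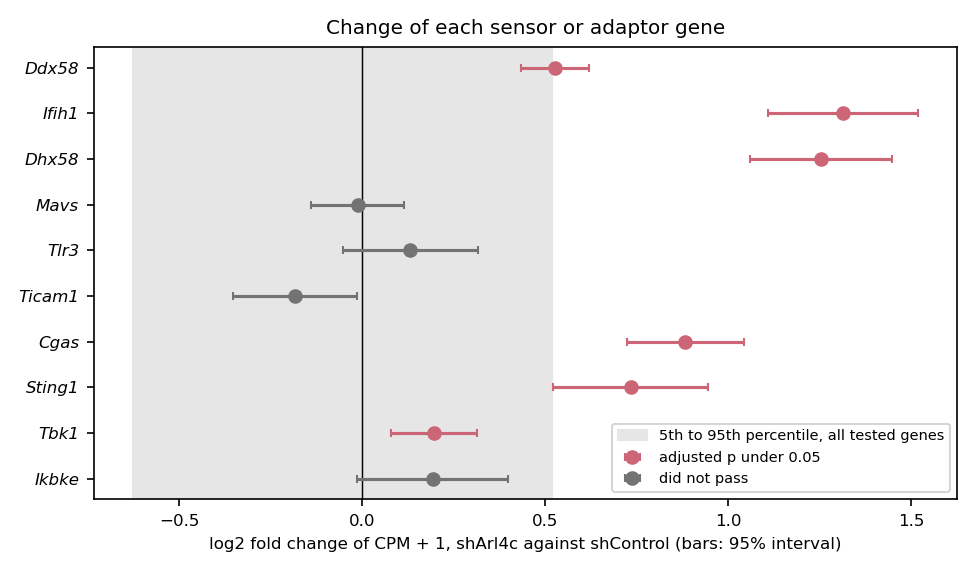
Log2 fold change of CPM + 1, shArl4c against shControl, of each of the 10 genes with its 95% interval from limma; red genes had an adjusted p under 0.05, grey genes did not pass, and the shaded band runs from the 5th to the 95th percentile of all tested genes (-0.63 to 0.52). Ifih1, Dhx58, Cgas and Sting1 lie beyond the band, Ddx58 sits at its upper edge with 0.53, and the other genes lie inside it.

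The levels of different genes were compared per kilobase of transcript, with the length of the longest principal coding transcript in the GENCODE M21 annotation of GRCm38. In shControl, Ddx58 was highest at 20.1 CPM per kb, followed by Tbk1 at 15.5, Mavs at 13.5 and Ticam1 at 6.80 CPM per kb. The ranges of these 4 genes over the 3 libraries did not overlap. Below them, Dhx58 (3.63 CPM per kb), Cgas (3.43), Sting1 (3.40), Ikbke (3.36) and Tlr3 (2.97) formed a group in which the range of each overlapped that of its neighbour in the order. Ifih1 was lowest, at 1.13 CPM per kb.

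In shArl4c the same 3 genes led, Ddx58 at 29.2, Tbk1 at 17.8 and Mavs at 13.4 CPM per kb. Dhx58 came next at 9.25 CPM per kb, above Cgas at 6.54. Sting1 and Ticam1, both at 5.94 and 5.93 CPM per kb, were not separated by their ranges of 5.56 to 6.25 and 5.88 to 6.01. Ikbke stood at 3.87, Tlr3 at 3.27 and Ifih1 still lowest at 3.08 CPM per kb.

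Ratios of the reads of 2 genes within a library do not depend on the scaling between libraries, and 9 such ratios were computed. With 3 libraries against 3, a two-sided exact permutation test cannot go below p = 0.1, so none could pass. The 6 ratios at this smallest value had an adjusted p of 0.15 over the 9 ratios by this exact test. Among single tested genes, 46.8% had groups that did not overlap. The share among ratios of other gene pairs was not computed. Each receptor had a higher ratio to the adaptor Mavs in every shArl4c library than in any shControl library. Mavs stayed between 39.1 and 43.9 CPM in every library, while each receptor had a wider gap between the groups. The separation of these ratios therefore followed from the levels of the single genes. For Ddx58 over Mavs, the ratio was 1.91, 1.97 and 1.80 in shControl and 2.71, 2.78 and 2.79 in shArl4c. Ifih1 over Mavs went from 0.150 ± 0.0140 to 0.412 ± 0.0122 (SD, n = 3), and Dhx58 over Mavs from 0.212 ± 0.00600 to 0.546 ± 0.0564. The groups did not overlap in any of these 3 ratios (exact permutation p = 0.1 each).

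Ratios among the 3 receptors were taken in the same way. There were 0.0792 ± 0.00379 Ifih1 reads for each Ddx58 read in shControl and 0.149 ± 0.00456 in shArl4c, and Dhx58 over Ddx58 went from 0.112 ± 0.00651 to 0.198 ± 0.0210, without overlap in either ratio (exact permutation p = 0.1 each). Dhx58 over Ifih1, by contrast, had overlapping groups, 1.42 ± 0.147 and 1.33 ± 0.177 (exact permutation p = 0.6). Tlr3 over Ticam1 was 0.628, 0.689 and 0.619 in shControl and 0.835, 0.788 and 0.817 in shArl4c. These groups had to be separate, since every shArl4c library was above every shControl library in Tlr3 and below in Ticam1. The ratio therefore adds nothing to the 2 genes, which each missed limma's threshold. Cgas over Sting1 (1.79 ± 0.161 and 1.94 ± 0.119, exact permutation p = 0.3) and Ikbke over Tbk1 (0.233 ± 0.0105 and 0.234 ± 0.0130, exact permutation p = 0.9) overlapped between the groups.

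**Figure D3:**
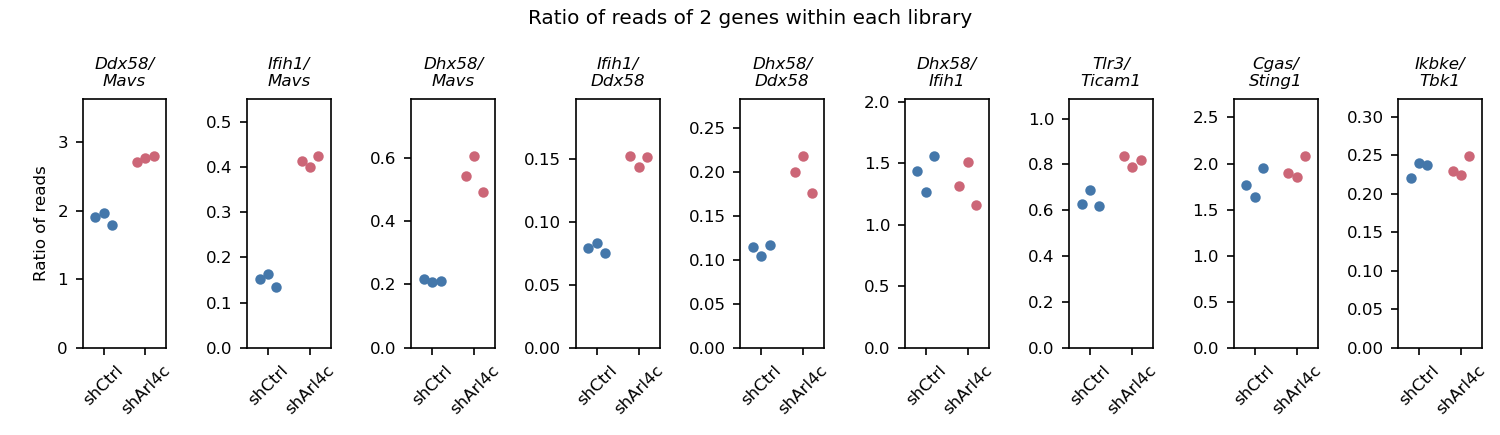
Ratio of the reads of 2 genes (1 pair per panel, vertical axis from 0) in each shControl (blue, shCtrl on the axis) and shArl4c (red) library. The groups are apart in the 3 ratios to Mavs, the 2 ratios to Ddx58 and Tlr3 over Ticam1, and overlap in Dhx58 over Ifih1, Cgas over Sting1 and Ikbke over Tbk1.

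Other genes of the pathways were read from 6 lists, chosen with earlier results of these data known, so their counts describe the lists only. The share of all tested genes that changed the same way stands beside each count. Among partners of the RIG-I-like receptors, 5 of 18 tested genes rose (18.9% of all tested genes), 1 fell (18% of all) and 12 did not pass; the median of their log2 fold changes was 0.08. Trim25, a ubiquitin ligase reported to activate RIG-I, rose from 105 ± 1.31 to 166 ± 7.16 CPM (SD, n = 3), 1.58-fold. Ddx60, a helicase gene that is interferon-induced, rose 3.18-fold from 1.54 ± 0.179 to 4.89 ± 0.982 CPM. Nlrx1, a mitochondrial protein known to restrain MAVS signalling, fell from 12.9 ± 0.955 to 8.49 ± 0.597 CPM, 1.51-fold. For Trim25, Ddx60 and Nlrx1, limma gave an adjusted p of 5.63e-10, 6.42e-06 and 0.000248. The count of higher genes was 3 without shControl 1, without shControl 2, without shArl4c 4 or with DESeq2, and 8 without shArl4c 3 or on plain CPM.

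Among partners of the endosomal TLRs, not all of which act with TLR3, 2 of 8 tested genes rose (18.9% of all tested genes). Of the others, 1 fell (18% of all) and 5 did not pass. The median log2 fold change of the 8 was 0.10. Unc93b1, the chaperone that carries nucleic acid-sensing TLRs to endosomes, rose 1.27-fold to 59.4 ± 2.40 CPM and the kinase gene Irak4 1.29-fold to 19.3 ± 0.572 CPM. Wdfy1, known to help recruit TRIF to its receptors, fell 1.37-fold from 65.6 ± 0.994 to 47.8 ± 3.19 CPM. On plain CPM 4 genes of this list were higher. The other endosomal receptors that were in the table, Tlr7 and Tlr13, had at most 0.306 and 0.202 CPM in any library and were not tested.

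Of 21 tested regulators of cGAS and STING, 5 rose and 5 fell, shares near those of all tested genes (18.9% and 18%), and 11 did not pass; the median of their log2 fold changes was 0.03. Ifi204, an interferon-induced gene of a family of DNA-binding proteins, rose from 43.0 ± 1.01 to 76.9 ± 0.751 CPM, 1.79-fold (limma adjusted p = 1.18e-10). Its family members are near copies of each other, and how reads were divided among them is uncertain. Abcc1, a transporter that can export cGAMP, rose 1.53-fold from 275 ± 8.23 to 422 ± 7.20 CPM. Stim1, a calcium sensor known to retain STING at the endoplasmic reticulum, fell from 69.4 ± 2.39 to 46.5 ± 1.20 CPM, 1.49-fold (limma adjusted p = 4.32e-08).

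Of 18 tested scaffolds, ligases and substrates of TBK1 and IKK epsilon, 7 rose (18.9% of all tested genes), none fell (18% of all) and 11 did not pass; the median of their log2 fold changes was 0.13. At an unadjusted limma p under 0.05, 4 were lower, and edgeR called 3 and DESeq2 0 lower. Irf7, the interferon-induced transcription factor that these kinases activate, rose from 9.95 ± 1.10 to 23.5 ± 1.505 CPM, 2.36-fold (limma adjusted p = 5.55e-09). Cyld, a deubiquitinase gene, rose 1.16-fold to 143 ± 2.73 CPM and Ikbkg, which encodes the regulatory subunit NEMO, 1.15-fold to 79.1 ± 2.74 CPM. Irf3, chosen after its values were seen, had 20.2 ± 1.40 and 22.4 ± 1.09 CPM and did not pass (limma adjusted p = 0.148). The count of higher genes was 3 without shControl 1, shControl 2 or shArl4c 2 and with DESeq2, and 4 without shControl 3 or shArl4c 4 and without trend and robust moderation. The count of lower genes was 1 without shControl 1 and 3 without shArl4c 3.

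Of 13 tested genes listed as other sensors of RNA and DNA, 7 rose, against 18.9% of all tested genes. As this list was chosen with earlier results known, the count is not independent support. None fell, against 18% of all (0 also at an unadjusted limma p under 0.05, with edgeR and with DESeq2), and 6 did not pass. The median log2 fold change of the 13 was 0.22. Zbp1, a sensor of left-handed nucleic acid, rose 4.14-fold from 2.61 ± 0.169 to 10.8 ± 0.905 CPM. Ifit1, which binds RNA lacking a host cap, rose 2.29-fold to 49.5 ± 2.69 CPM, and Eif2ak2, the RNA-activated kinase PKR, 1.51-fold from 68.1 ± 2.37 to 103 ± 3.11 CPM. Their limma adjusted p was 1.99e-09, 6.01e-11 and 8.76e-09. Of 20 type I and III interferon ligand genes, 2 were in the table: Ifnk had at most 0.403 CPM in any library and Ifna13 at most 0.225 CPM, so neither was tested. The other 18, Ifnb1 among them, were not found by symbol in the table, so their levels could not be read.

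**Figure D4:**
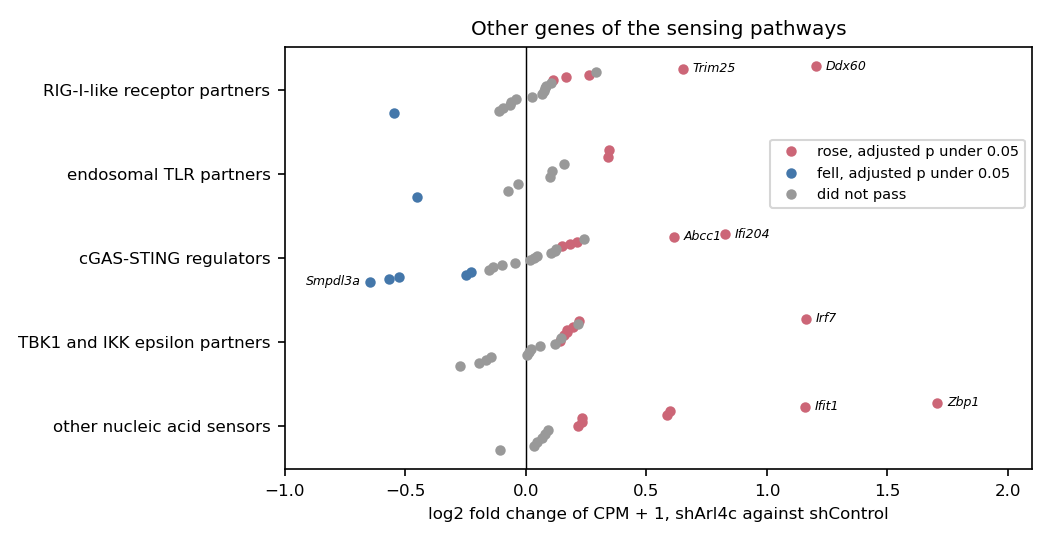
Log2 fold change of CPM + 1, shArl4c against shControl, of the tested genes of 5 lists (1 row each; points are spread vertically by rank and genes beyond 0.6 either way are named), red where a gene rose and blue where it fell with an adjusted p under 0.05, grey where it did not pass. Zbp1, Ddx60, Irf7 and Ifit1 lie farthest to the right.

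Sensors are abundant in leukocytes, whose markers were read beside these results. Of 12 leukocyte markers, 8 were in the table and 3 were tested, of which 1 rose, Cd68, from 2.79 ± 0.397 to 5.77 ± 0.207 CPM. The sum of these 8 was 7.20 to 8.34 CPM for the shControl libraries, against 9.66 to 11.0 CPM for the shArl4c libraries. The rise in this sum came from Cd68. Mean levels of Ptprc, Cd74, Lyz2, Itgam and Csf1r were lower with shArl4c, and those of Adgre1 and Laptm5 slightly higher. Of these, Lyz2 and Csf1r did not pass, and the others were not tested. Ptprc, which encodes the pan-leukocyte protein CD45, had at most 0.148 CPM in any library, 2 reads or fewer. Dendritic cell markers summed to 19.2 to 22.9 CPM in shControl and 51.5 to 58.4 CPM in shArl4c, nearly all from Bst2, a gene that is also interferon-induced and rose 2.66-fold. The other listed markers of that cell type that were in the table, Itgax, Xcr1 and Irf8, had group means of at most 0.175 CPM. The part of such cells in the changes above was not tested. In cells read in bulk, more cells with a transcript and more transcript per cell cannot be told apart.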

How the data were processed

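RNA was sequenced from 6 libraries of the mouse line mDE6, 3 per group, from TRIzol-extracted total RNA and a strand-marking MGI library kit, as the labels' protocols state. The authors deposited 1 table of CPM values per gene and library. Trimmomatic 0.38, RSEM 1.3.0, Bowtie2 and edgeR, with build GRCm39, are named in the submitters' processing notes, without order or settings. The use of strand in counting is not stated in the labels or the file. Opposite-strand genes overlap 0.721% to 7.32% of the GENCODE exon bases of Cgas, Dhx58, Ikbke and Tlr3, and those in the table had means of at most 0.323 CPM.

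All values (100%) were whole multiples of the smallest value of their column, within 0.001 of a read, so reads were recovered from the CPM. The floor of 3 reads was 0.202 to 0.248 CPM and, like all counting limits, covers counting error only. Columns were matched to groups and not to single samples: those named shluc were taken as shControl. Those named shArt4c, read as a misspelling, were taken as shArl4c. Of 22032 identifiers, 21880 matched a symbol.

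The 14740 genes at 1 CPM or more on average were fitted as log2(CPM + 1) with limma 3.58.1 in R 4.3.3, with trend and robust moderation, no covariate, and Benjamini-Hochberg adjustment over all tested genes (threshold 0.05). Such fold changes understate changes of low genes; plain folds are ratios of mean CPM. Alternatives were pseudocounts of 0.5 and 5, no filter or 5 CPM, other scalings, limma without trend and robust moderation, edgeR 4.0.16 and DESeq2 1.42.0 on recovered reads (5303 and 4108 genes called) and leaving out each library. The fit was tested on simulated counts, with 50 genes changed at each fold. It recovered 44% of them at 1.25-fold, 70% at 1.5-fold, 88% at 2-fold and 100% at 4-fold. Of its 160 calls, 5.62% were false. Far fewer genes changed there than were called in the data.

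The 10 genes, the 6 pathway lists and the 5 marker lists (leukocyte, dendritic, mesenchymal, epithelial, endothelial) were chosen with earlier results of these data known. Named genes were the 10, Arl4c and the 3 called genes of lowest p in each pathway list; Col1a1, Tlr7, Tlr13, Irf3 and the leukocyte and dendritic markers were named after their values were seen.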

Additional observations from a re-analysis of the deposited data

How the results depend on the processing

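No paired analysis was possible because the columns of the table were matched to groups and not to single samples, so they carry no replicate number of the labels. Over 16 alternatives, Ddx58, Ifih1, Dhx58, Cgas and Sting1 passed in all 16 and Tbk1 in 14 (not with DESeq2, log2 fold change 0.19, or without shControl 1, 0.16). Tlr3, Ticam1, Ikbke and Mavs passed in none, with lowest adjusted p of 0.160, 0.0568, 0.0797 and 0.647. The count of the 10 genes called higher was 5 or 6 and that called lower 0 throughout. Mavs changed sign on plain CPM (0.019), without shControl 3 and without shArl4c 3, and leaving out 1 library gave it from -0.050 to 0.032; the cause was not tested. The log2 fold change of Ifih1 ran from 0.97 with a pseudocount of 5 to 1.44, and that of Dhx58 from 0.99 to 1.35. Between 4108 and 6625 genes were called over all alternatives. The 10 genes had 72 to 1585 reads per library.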
